A study of Mus musculus with 9 samples.

Results

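The genes described here are 10 genes of the melanocyte lineage, read as RNA in the developing mouse cochlear duct: Tyr, Tyrp1, Dct, Pmel, Mlana, Mitf, Kit, Ednrb, Slc45a2 and Oca2. They were chosen by name, as genes that mark melanocytes and the melanocyte-derived precursors of the intermediate cells of the cochlea, and each was matched from its Ensembl identifier to its symbol. All 10 were among the 54232 genes with a row in the 9 libraries. Each library held the RNA of the microdissected cochlear ducts of both ears of a single embryo at E14.5, from 3 WT embryos, 3 heterozygotes for Prdm16 cGT and 3 Prdm16 cGT null embryos. The heterozygotes carried 1 copy and the null embryos 2 copies of the gene-trap allele cGT of Prdm16, a transcription factor gene, and the allele was present in every cell of the embryo. The embryos were littermates from crosses of heterozygotes on an FVB/NJ background, which WT embryos shared, and FVB/NJ is an albino strain with an inactivating allele of Tyr. The counts therefore measure RNA of pigment genes and not pigment.

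Melanocytes arise from the neural crest. Their precursors, the melanoblasts, migrate through mesenchyme, and those that reach the inner ear settle in the lateral wall of the cochlear duct, where they become the intermediate cells of the stria vascularis and help to produce the potassium-rich endolymph and the potential that hair cells need. The transcription factor MITF starts the lineage and binds E-box motifs in the promoters of melanin enzyme genes, while the receptors KIT and EDNRB receive the ligands that keep melanoblasts alive and moving. The melanosome is the organelle in which melanin is made, on a fibrous matrix of PMEL protein.

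The promoters of the melanin enzyme genes Tyr, Tyrp1 and Dct and of the transporter gene Oca2 are shown because RNA of those genes was lower in all null than in all WT libraries and because they hold the letters CATGTG, the core of the M-box that MITF is known to bind. The sequences are the RefSeq entries of GRCm38.p6, the same assembly as mm10, and 7 of the 10 genes had an entry. Each runs 5′ to 3′ on the strand of its gene and stops at the base before the transcription start, with CATGTG, or CACATG where it lies on the other strand, in capitals. For Tyr (minus strand, chr7:87493513-87493762), Dct (minus strand, chr14:118052247-118052496) and Oca2 (plus strand, chr7:56239509-56239758) the 250 bases are given, and for Tyrp1 (plus strand, chr4:80834155-80834184) the 30 bases around the motif.
Tyr: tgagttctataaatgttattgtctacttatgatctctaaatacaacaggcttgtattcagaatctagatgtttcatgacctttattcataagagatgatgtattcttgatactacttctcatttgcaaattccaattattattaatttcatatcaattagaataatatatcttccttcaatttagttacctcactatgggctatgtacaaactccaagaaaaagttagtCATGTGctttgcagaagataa
Tyrp1: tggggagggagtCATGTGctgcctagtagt
Dct: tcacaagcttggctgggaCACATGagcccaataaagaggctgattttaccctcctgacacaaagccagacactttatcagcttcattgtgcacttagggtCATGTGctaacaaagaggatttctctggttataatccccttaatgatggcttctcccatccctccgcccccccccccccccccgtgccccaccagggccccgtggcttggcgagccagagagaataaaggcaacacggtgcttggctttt
Oca2: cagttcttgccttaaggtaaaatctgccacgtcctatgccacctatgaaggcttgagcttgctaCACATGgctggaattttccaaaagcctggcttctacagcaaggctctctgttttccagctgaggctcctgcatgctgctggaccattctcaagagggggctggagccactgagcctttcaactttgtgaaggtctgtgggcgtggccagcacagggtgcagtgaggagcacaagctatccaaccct
The motif lay 16 to 21 bases upstream of the start of Tyr, 41 to 46 bases upstream of Tyrp1, and 145 to 150 bases upstream of Dct, where CACATG also stood 227 to 232 bases upstream. In Oca2 it lay 181 to 186 bases upstream, as CACATG. Positions count from the RefSeq start, and for Tyrp1 GENCODE places the start of the gene further upstream, at 80834123, so that its motif lies within the gene as GENCODE draws it. The windows of Kit, Mitf and Ednrb held neither form. Of 32851 promoter windows of 250 bases, 12.3% held CATGTG on either strand. The other E-box searched, CACGTG, stood in 6.02% of those windows and in none of the windows of these genes. A match describes the letters of the window and is not a measured binding site.

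Total counts per library ran from 24095322 to 30819118, and 3 counts, taken as the floor, were worth 0.0968 to 0.126 CPM (counts scaled to a common library size after TMM normalization), which covers counting error only. The targeted gene, Prdm16, was at 184 to 225 CPM in WT, 123 to 151 in heterozygote and 19.1 to 27.4 in null embryos, in the order of the labels. Libraries of WT embryos 1 and 2 and null embryo 3 stood apart in genes of tissue around the duct. The summed level of the mesenchyme markers Tbx18 and Pou3f4, which the study used for that tissue and which were picked for this sum after their values were seen, was 80.8, 150 and 10.6 CPM for WT embryos 1 to 3. It was 2.17, 8.86 and 5.88 CPM in heterozygotes 1 to 3 and 2.60, 2.42 and 89.4 CPM in null embryos 1 to 3. All 10 endothelial genes had counts, and they summed to 6.58 to 116 CPM in WT, 7.42 to 11.2 in heterozygote and 7.68 to 68.4 in null embryos. The other genes of the mesenchyme list did not all follow this pair. Named after their values were seen, Prrx1 was at 21.5, 33.1 and 3.56 CPM in WT and 2.56, 0.645 and 69.1 CPM in null embryos, and Col3a1 at 136, 287 and 35.3 CPM and 13.7, 6.002 and 499 CPM, so that null embryo 3 lay above WT embryos 1 and 2 for both. Of the 10 pigment genes, all but Tyrp1 were highest in WT embryo 2 among WT and in null embryo 3 among null libraries, as Tbx18 plus Pou3f4 were. The part of these cells in the results was not tested except where a fit without those libraries or with a mesenchyme covariate is given.

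In null against WT cochlear ducts, RNA of 8 of the 10 melanocyte genes was lower in all 3 null embryos than in all 3 WT embryos, against 8.95% of all 17168 genes tested. The 8 were the melanin enzyme genes Tyr, Tyrp1 and Dct, the melanosome genes Pmel and Mlana, the transporter genes Slc45a2 and Oca2, and the receptor gene Kit. The median log2 fold change over the 10 genes was -1.97, with values from -2.46 to -0.28, and the median over all genes tested was 0.01. In the same comparison the median was -1.42 for 10 endothelial genes, -1.13 for 9 macrophage genes and -0.62 for 6 erythroid genes. It was -0.02 for 10 mesenchyme genes, 5 negative and 5 positive, from -1.50 for Tbx18 to 3.41 for Col1a1. The part of those cells was not tested here. None of the 10 was called by edgeR's quasi-likelihood test, where a call asked for an adjusted p under 0.05 with a log2 fold change of more than 0.5 in either direction and 1.71% of all genes were called. Mlana, under 10 reads in every null library, passed the filter on low counts only through WT, and Oca2 had 2, 7 and 12 reads in null embryos. An unadjusted p under 0.05 was found for 8 of the 10, these 2 genes among them, against 12.2% of all genes. That count was 3 without WT embryo 2 (Tyrp1, Pmel and Slc45a2, against 7.66% of all genes), 5 without null embryo 2 (against 12.2%), 6 without null embryo 1 (against 15.4%), 7 without WT embryo 1 (against 8.61%) and 9 without WT embryo 3 or null embryo 3 (against 9.94% and 16%). DESeq2 called 3 of them, all lower (Tyrp1, Pmel and Slc45a2), where it called 3.27% of the genes it tested, and limma-voom called 0, where it called 1.75%. Without the filter on low counts edgeR called 5 (Tyr, Tyrp1, Dct, Pmel and Slc45a2), where 1.49% of all genes were called. It called 1, Pmel, with all 9 libraries in one fit, where 2.63% were called, and with scaling by library size only, where 1.71% were. Without null embryo 3, edgeR called 6 (Tyr, Dct, Pmel, Kit, Ednrb and Slc45a2), where 2.51% of all genes were called. Without WT embryo 3 it called 1, Tyrp1, where 0.897% were called.

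In heterozygote against WT ducts, 5 of the 10 (Tyr, Dct, Pmel, Ednrb and Slc45a2) were lower in all 3 heterozygotes than in all 3 WT embryos, against 8.99% of all 17269 genes tested. The median log2 fold change of the 10 was -1.39, with values from -2.36 to -0.04, and that of all genes was 0.00 to 2 decimals. In the same comparison the median was -2.94 for the 9 endothelial genes tested, -2.74 for 10 mesenchyme genes, -2.40 for 7 macrophage genes and -1.78 for 6 erythroid genes, and the part of those cells in the values of the 10 genes was not tested. None passed both thresholds in edgeR, and 0.151% of all genes did. An unadjusted p under 0.05 was found for 7 of the 10, against 13.1% of all genes. DESeq2 called 6, all lower (Tyr, Tyrp1, Dct, Pmel, Ednrb and Slc45a2), where it called 1.73% of the genes it tested, and limma-voom called 0, where it called 0.0637%. edgeR called the same 6 without the filter on low counts, where 2.14% of all genes were called. With all 9 libraries in one fit it called none of the 10 and none of all genes. In that fit 5 of the 10 had an unadjusted p under 0.05, against 6.35% of all genes. Without WT embryo 3, the WT library with the lowest mesenchyme markers, edgeR called 8, all except Mlana and Oca2, where it called 2.86% of all genes.

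Between null and heterozygote ducts, 9 of the 10 genes passed the filter on low counts, and Mlana did not. Only Oca2 was lower in all 3 null embryos than in all 3 heterozygotes, against 9.1% of all 17067 genes tested, and in the fit of all 6 libraries Oca2 alone had an unadjusted p under 0.05, against 11.4% of all genes. That count was 5 without null embryo 3 (Tyr, Dct, Pmel, Kit and Oca2, all lower, against 11.7% of all genes), and it was 0 without heterozygote 1, heterozygote 3 or null embryo 2 (against 7.15%, 6.76% and 12.7%). The median log2 fold change of the 9 was -0.32, and that of all genes was 0.01. For 10 mesenchyme genes the median was 2.69, for 6 endothelial genes 1.56, for 6 erythroid genes 0.89 and for 4 macrophage genes 0.78, and the part of those cells was not tested. edgeR, DESeq2 and limma-voom each called 0 of them, where they called 0.615%, 1.96% and 0.586% of the genes they tested. Without null embryo 3 edgeR called 1, Kit, where it called 1.03% of all genes. The null and heterozygote comparisons with WT share the WT libraries, and each shares a group with the third comparison, so the 3 sets of values are not independent. In bulk RNA, fewer cells of a type and less RNA per cell cannot be told apart.

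**Figure D1:**
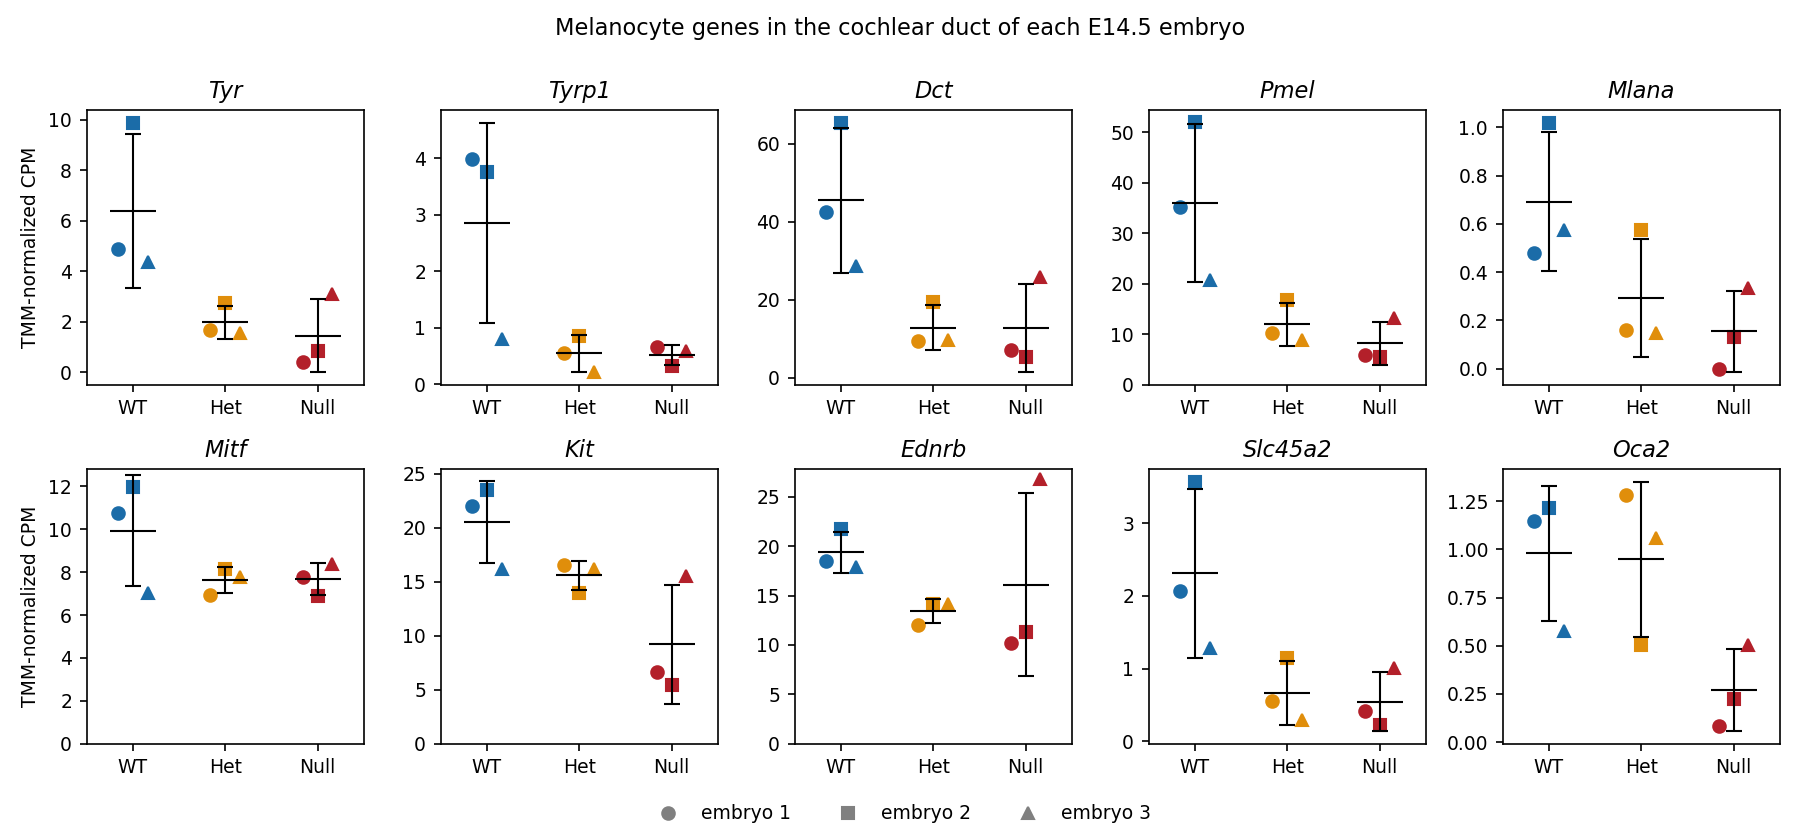
Level of each of the 10 melanocyte genes in TMM-normalized CPM (y axis) by genotype (x axis), with a point per embryo, a horizontal bar at the mean and whiskers of 1 SD over 3 embryos. Tyr, Dct, Pmel and Slc45a2 were lower in the 3 heterozygotes and the 3 null embryos than in any WT embryo, and null embryo 3 was the highest null library for 9 of the 10 genes, all except Tyrp1.

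The first group is the melanin enzymes. Tyr (mm10 chromosome 7, 87424771 to 87493512, minus strand) encodes tyrosinase, the rate-limiting enzyme of melanin synthesis. WT embryos 1 to 3 had 4.89, 9.88 and 4.37 CPM of it, with 1.69, 2.74 and 1.54 CPM in heterozygotes and 0.413, 0.839 and 3.10 CPM in null embryos. WT embryo 2 was the highest library, null embryo 1 the lowest, and the WT range did not overlap either mutant range. The mean was 6.38 ± 3.04 CPM in WT, 1.99 ± 0.655 in heterozygote and 1.45 ± 1.44 in null embryos (SD, n = 3 each). The corresponding log2 fold change was -2.15 in null against WT (95% interval -3.73 to -0.57, edgeR adjusted p = 0.234) and -1.68 in heterozygote against WT (-2.44 to -0.91, edgeR adjusted p = 0.0733). Without null embryo 3, whose level was several times that of the other null embryos, the null value was -3.31 and was called. That embryo was the only null library high in Tbx18 and Pou3f4. Over the embryos left out in turn the null value ran from -3.31 to -1.68, called only without null embryo 3.

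Dct (chromosome 14, 118012790 to 118052244, minus strand) encodes dopachrome tautomerase, which acts downstream of tyrosinase and is among the earliest markers of melanoblasts. It had the most reads of the 10 genes in WT, at 42.5, 65.4 and 28.6 CPM in WT, 9.39, 19.4 and 9.72 CPM in heterozygotes and 7.14, 5.32 and 25.8 CPM in null embryos. Both mutant groups lay below the lowest WT library, null embryo 3 only a little. The mean of 45.5 ± 18.6 CPM in WT stood against 12.8 ± 5.70 in heterozygotes and 12.7 ± 11.3 in null embryos, which were 28.2% and 28.0% of WT. This gave log2 fold changes of -1.85 in null against WT (95% interval -3.21 to -0.48, edgeR adjusted p = 0.236) and -1.82 in heterozygote against WT (-2.56 to -1.08, edgeR adjusted p = 0.0631). Without null embryo 3 the null value was -2.88 and was called. Over the embryos left out in turn it ran from -2.88 to -1.47, called only without null embryo 3.

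Tyrp1 (chromosome 4, 80834123 to 80851719, plus strand) encodes tyrosinase-related protein 1, which acts late in the making of eumelanin. Its level was 3.997, 3.762 and 0.813 CPM in WT, 0.562, 0.865 and 0.219 CPM in heterozygotes and 0.660, 0.323 and 0.586 CPM in null embryos. WT embryos 1 and 2 stood above every other library, and WT embryo 3, from 24 reads, lay just under heterozygote 2, also from 24 reads. Tyrp1 had a log2 fold change of -2.46 in null against WT (95% interval -3.88 to -1.04, edgeR adjusted p = 0.124) and -2.36 in heterozygote against WT (-3.73 to -0.999, edgeR adjusted p = 0.123). In the 6 libraries low in mesenchyme markers it was -0.74 and -0.56. Without WT embryo 3 the null value was -2.90 and was called. With any other embryo left out it was as small as -2.13 and was not called. The high values of Tyrp1 were in the WT libraries with the highest mesenchyme and endothelial markers, and null embryo 3, with 89.4 CPM of Tbx18 and Pou3f4, had 0.586 CPM of it. Beyond the fits without those libraries or with the mesenchyme covariate, the part of those cells in the Tyrp1 values was not tested.

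The second group is the proteins and transporters of the melanosome. Pmel (chromosome 10, 128704195 to 128720238, plus strand) encodes the amyloid matrix protein on which melanin is laid down. It was at 35.2, 52.0 and 20.8 CPM in WT, 10.2, 16.8 and 8.91 CPM in heterozygotes and 5.94, 5.55 and 13.1 CPM in null embryos. All 6 mutant libraries lay below all 3 WT libraries. The mean was 36.0 ± 15.6 CPM in WT, 11.96 ± 4.22 in heterozygote and 8.20 ± 4.25 in null embryos, so that 33.3% of the WT mean was present in heterozygotes and 22.8% in null embryos. The log2 fold change of -2.14 in null against WT (95% interval -3.13 to -1.16) had the smallest adjusted p of the 10 genes, 0.0551 in edgeR, and that of -1.58 in heterozygote against WT (-2.30 to -0.87) had an edgeR adjusted p of 0.0709. The null value was -2.65 and was called without null embryo 3. Over the embryos left out in turn it ran from -2.65 to -1.77, called only in that case. Pmel was called lower in null against WT in 8 of the 16 alternative fits, more than any other of the 10 genes. Its exons share 34 bases with Cdk2 and 105 bases with Dgka, both on the opposite strand, so a small share of its reads could belong to them if strand was not used in counting.

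Mlana (chromosome 19, 29697824 to 29708634, plus strand) encodes a small melanosome membrane protein needed for the maturation of PMEL. Its reads were few, 13, 26 and 17 in WT, 4, 16 and 4 in heterozygotes and 0, 4 and 8 in null embryos, which is 0.481, 1.02 and 0.576 CPM in WT, 0.161, 0.576 and 0.146 in heterozygotes and 0, 0.129 and 0.335 in null embryos. The 0 in null embryo 1 allows up to 0.124 CPM, the floor of that library. All null libraries lay below all WT libraries, and heterozygote 2 reached WT embryo 3. Mlana had a log2 fold change of -2.15 in null against WT (95% interval -4.00 to -0.29, edgeR adjusted p = 0.323) and -1.20 in heterozygote against WT (-2.48 to 0.09, edgeR adjusted p = 0.414). In null against WT it passed the filter on low counts only because its WT reads were high, so that value is a description. Without heterozygote 2 the heterozygote value was -2.14, and without null embryo 3 the null value was -3.21, and neither was called.

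Slc45a2 (chromosome 15, 11000721 to 11029233, plus strand) encodes a melanosome transporter that keeps the organelle's pH suitable for tyrosinase. It was at 2.07, 3.57 and 1.29 CPM in WT, 0.562, 1.15 and 0.292 CPM in heterozygotes and 0.413, 0.226 and 1.01 CPM in null embryos. No mutant library reached the lowest WT library, and the highest heterozygote was close to it. Slc45a2 had a log2 fold change of -2.10 in null against WT (95% interval -3.46 to -0.73, edgeR adjusted p = 0.174) and -1.77 in heterozygote against WT (-2.88 to -0.65, edgeR adjusted p = 0.154). Without null embryo 3 the null value was -2.86 and was called. Over the embryos left out in turn it ran from -2.86 to -1.625, called only without null embryo 3.

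Oca2 (chromosome 7, 56239760 to 56536518, plus strand) encodes a melanosome membrane protein that also acts on the pH of the organelle. It departed from the other pigment genes in the heterozygotes. Its reads numbered 31, 31 and 17 in WT, 32, 14 and 29 in heterozygotes and 2, 7 and 12 in null embryos, which is 1.15, 1.21 and 0.576 CPM, then 1.28, 0.504 and 1.06 CPM, then 0.0825, 0.226 and 0.502 CPM. Heterozygote and WT ranges overlapped, with a log2 fold change of -0.04 (95% interval -0.98 to 0.89, edgeR adjusted p = 0.978), while all null libraries lay below all others, null embryo 3 just under heterozygote 2. The log2 fold change of null embryos was -1.85 against WT (95% interval -3.24 to -0.46, edgeR adjusted p = 0.245) and -1.80 against heterozygotes (-3.20 to -0.40, edgeR adjusted p = 0.330). The heterozygote value turned positive in 6 of 16 alternatives, up to 0.78, and the null values stayed negative in all 16 against either group.

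The third group is the regulator Mitf (chromosome 6, 97807052 to 98021349, plus strand), the transcription factor gene at the head of the lineage, with several promoters of which one is particular to melanocytes. Its level was 10.8, 11.99 and 7.05 CPM in WT, 6.94, 8.14 and 7.78 CPM in heterozygotes and 7.75, 6.87 and 8.37 CPM in null embryos. The ranges of all 3 genotypes overlapped, and WT embryo 3 lay among the mutants. For Mitf the log2 fold change stood at -0.38 in null against WT (95% interval -0.88 to 0.13, edgeR adjusted p = 0.550) and -0.38 in heterozygote against WT (-0.80 to 0.04, edgeR adjusted p = 0.430), intervals that do not reach -1. Without WT embryo 3 the values were -0.57 and -0.58, the latter called, and without WT embryo 2 they were -0.21 and -0.22. Counts are summed over all Mitf transcripts, so the melanocyte transcript could not be read on its own. The highest library exceeded the lowest by 1.75-fold for Mitf, against 12.3-fold for Dct and 23.9-fold for Tyr.

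The fourth group is the receptors. Kit (chromosome 5, 75574916 to 75656722, plus strand) encodes the receptor of the ligand KITL, needed for melanoblast survival and also present on mast cells. Its level was 21.99, 23.5 and 16.2 CPM in WT, 16.6, 14.0 and 16.2 CPM in heterozygotes and 6.60, 5.42 and 15.6 CPM in null embryos. Null embryos 1 and 2 were far below the other 7 libraries, and null embryo 3 lay within the range of the heterozygotes and under the lowest WT library. Kit had a log2 fold change of -1.17 in null against WT (95% interval -2.05 to -0.29, edgeR adjusted p = 0.246), -0.40 in heterozygote against WT (-0.71 to -0.09, edgeR adjusted p = 0.245) and -0.76 in null against heterozygote (-1.59 to 0.06, edgeR adjusted p = 0.465). Without null embryo 3 it was -1.78 against WT and -1.38 against heterozygotes, both called. With any other embryo left out neither was called, and the values were as small as -0.89 and -0.49. Of the mast cell list, 7 of 8 genes had counts, Fcer1a was at 0 in all 9 libraries, and the list's genes differed in direction: of 6 tested in null against WT, edgeR called 1 higher and 0 lower, and the median was -1.07. Of its most abundant genes, Gata2, which the duct epithelium also expresses, was at 530 to 593 CPM in WT, 526 to 684 in heterozygote and 669 to 940 in null embryos (log2 fold change 0.54 in null against WT, edgeR adjusted p = 0.121). Hdc was at 1.085 to 2.43, 0.963 to 1.21 and 0.516 to 1.21 CPM (-1.06, edgeR adjusted p = 0.368). Named after their values were seen, Ms4a2 was at 0.222 to 0.339, 0.540 to 0.804 and 1.47 to 2.15 CPM and was called higher in null against WT (2.67, edgeR adjusted p = 0.00871). Cpa3 was high in WT embryos 1 and 2 and null embryo 3, at 2.44, 2.82 and 1.84 CPM, and at 0 to 0.482 CPM in the other 6 libraries. The part of mast cells in the Kit values was not tested.

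Ednrb (chromosome 14, 103814625 to 103844402, minus strand) encodes the endothelin receptor that takes the ligand EDN3, and it is also known from glia and vessels. It was at 18.5, 21.8 and 17.9 CPM in WT, 12.04, 14.1 and 14.1 CPM in heterozygotes and 10.2, 11.4 and 26.8 CPM in null embryos. The heterozygotes lay below WT, null embryos 1 and 2 below the heterozygotes, and null embryo 3 above all other libraries. Against WT the log2 fold change of null embryos was -0.28 (95% interval -1.08 to 0.53, edgeR adjusted p = 0.798), and it was -0.85 and called without null embryo 3, -0.03 without null embryo 1, -0.07 without null embryo 2 and -0.18 without WT embryo 2. In heterozygote against WT it was -0.53 (-0.78 to -0.28, edgeR adjusted p = 0.0762).

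**Figure D2:**
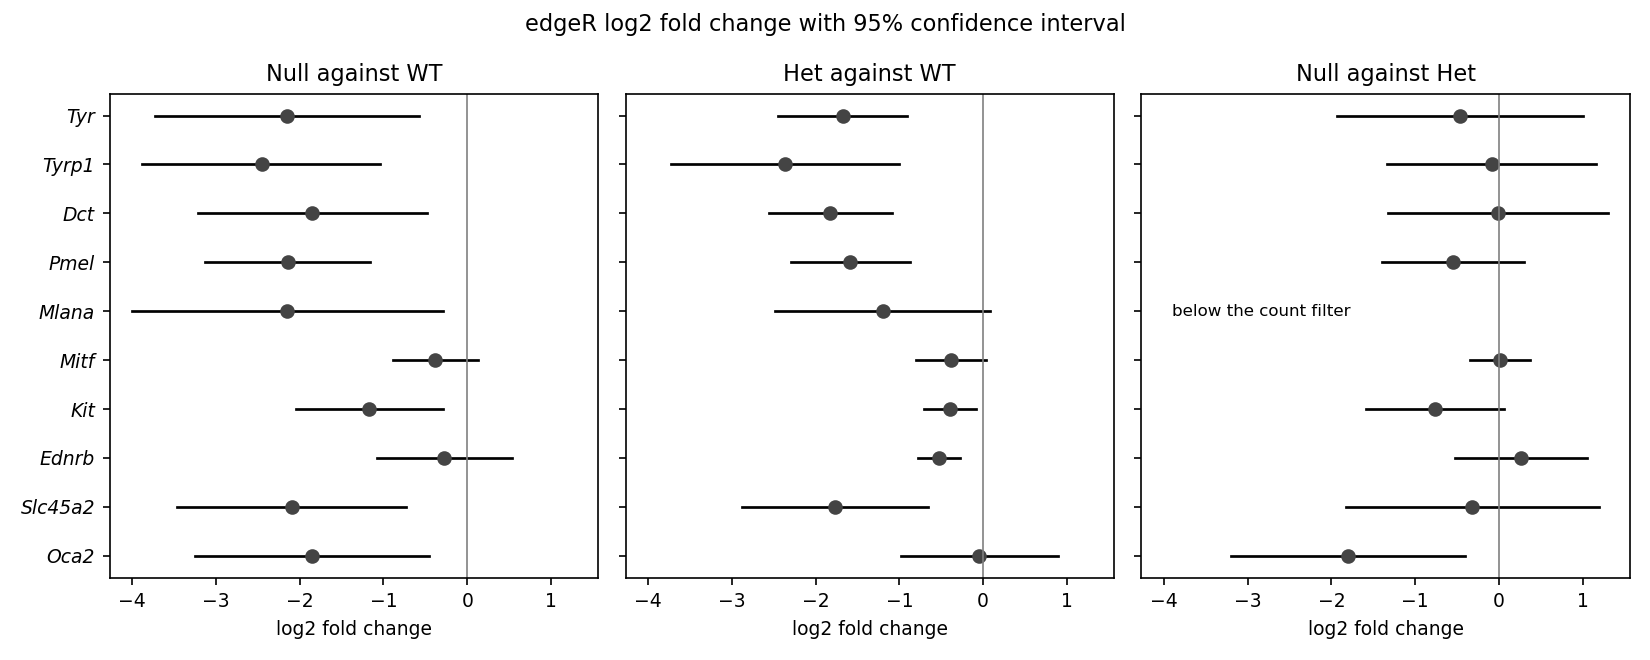
Log2 fold change (x axis, edgeR, point) and its 95% confidence interval (line) for each gene (y axis) in the 3 comparisons, with the vertical line at 0. In null against WT the intervals of Tyr, Tyrp1, Dct, Pmel, Mlana, Kit, Slc45a2 and Oca2 lay below 0, and in null against heterozygote only that of Oca2 did. Mlana was under the count filter in the third comparison and passed it in null against WT only through WT.

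The libraries that stood apart were also the highest in pigment genes of their genotype. The sum of Tyr, Tyrp1, Dct, Pmel and Mlana was 87.1, 132 and 55.2 CPM for WT embryos 1 to 3, 21.99, 40.4 and 20.5 CPM in heterozygotes and 14.2, 12.2 and 42.9 CPM in null embryos. Within WT and within null embryos, the order of this sum was that of Tbx18 plus Pou3f4, and among heterozygotes embryo 2 was the highest in both. Null embryo 3, with 89.4 CPM of Tbx18 and Pou3f4, had 42.9 CPM of pigment genes, and WT embryo 1, with 80.8 CPM of those markers, had 87.1 CPM. WT embryo 3, at 10.6 CPM of the markers, had 55.2 CPM of pigment genes, and heterozygote 2, at 8.86 CPM, had 40.4 CPM. Heterozygote 1, at 2.17 CPM of the markers, had 21.99 CPM of pigment genes, and null embryos 1 and 2, at 2.60 and 2.42 CPM, had 14.2 and 12.2 CPM. These are single libraries, matched on Tbx18 and Pou3f4 alone, and their differences were not tested.

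**Figure D3:**
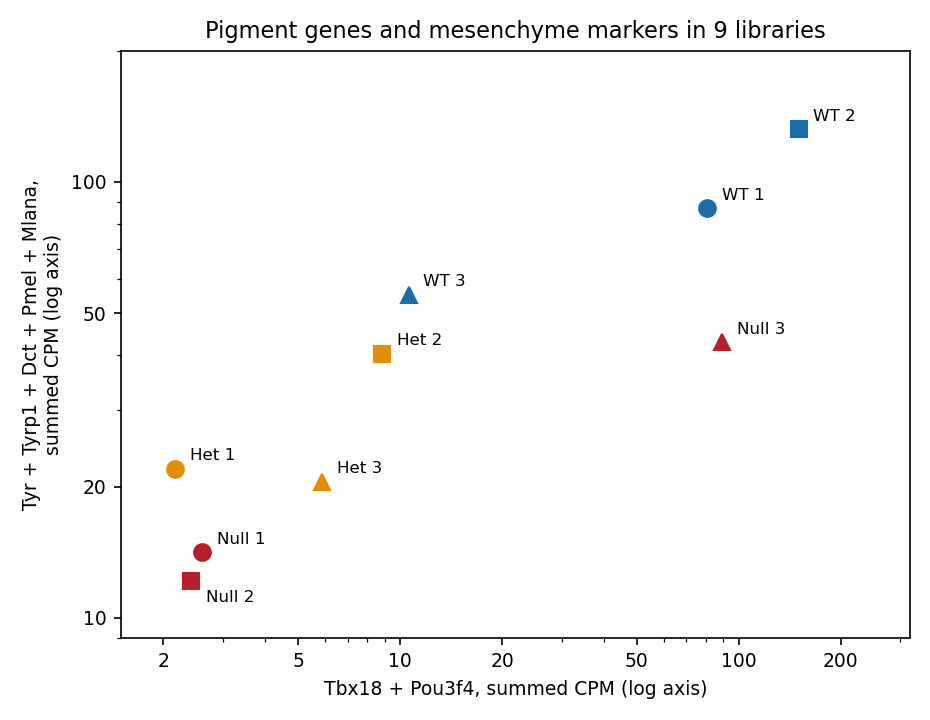
Summed level of Tyr, Tyrp1, Dct, Pmel and Mlana (y axis, CPM, log scale) against the summed level of the mesenchyme markers Tbx18 and Pou3f4 (x axis, CPM, log scale), with a labelled point for each of the 9 libraries. WT 1, WT 2 and Null 3 lie to the right at 80.8 to 150 CPM of the markers, and Null 3 has the lowest pigment sum of those 3 libraries.

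The fits that took these libraries into account were added after the values were seen. In the 6 libraries low in mesenchyme markers (WT embryo 3, the 3 heterozygotes and null embryos 1 and 2), fitted together with the lone WT library assumed to vary like the others, the log2 fold change of null against WT was -2.76 for Tyr, -2.20 for Dct, -1.85 for Pmel and -1.43 for Kit. These 4 genes were called (edgeR adjusted p from 0.00702 to 0.0258), where 1.09% of all genes were. With the mean log2 CPM of Tbx18 and Pou3f4 as a covariate in the null and WT libraries, Dct at -1.19 and Pmel at -1.49 were called (edgeR adjusted p = 0.0211 and 0.00548), where 1.89% of all genes were. With the covariate and all 9 libraries in one fit, Tyr at -1.51, Dct at -1.17 and Pmel at -1.48 were called, where 3.32% of all genes were.

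The covariate rests on those 2 genes. It left the null differences smaller, with Tyr moving from -2.15 to -1.51, Dct from -1.85 to -1.19, Pmel from -2.14 to -1.49 and Tyrp1 from -2.46 to -1.62.

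The heterozygote differences of these genes were smaller too. With the covariate, Dct moved from -1.82 to -0.76 in heterozygote against WT, Tyr from -1.68 to -0.77, Pmel from -1.58 to -0.47 and Tyrp1 from -2.36 to -0.33, while Oca2 moved from -0.04 to 0.39. In the 6 libraries low in mesenchyme markers Dct was at -1.15, Tyr at -1.13 and Pmel at -0.79, and WT embryo 3 was above all 3 heterozygotes for Tyr, Dct, Pmel, Ednrb and Slc45a2. None of the 10 genes was called in heterozygote against WT under the covariate, with the covariate and all 9 libraries, or in the 6 libraries, where 0.0521%, 0% and 0.0732% of all genes were called. At an unadjusted p under 0.05 the 3 fits gave 1 (Dct), 2 (Dct and Pmel) and 4 (Tyr, Dct, Pmel and Ednrb) of them, against 7.9%, 4.14% and 3.97% of all genes. In null against heterozygote the same 5 genes, Tyr, Dct, Pmel, Kit and Oca2, were lower at an unadjusted p under 0.05 in each of the 3 fits, against 13.1%, 15.2% and 11.4% of all genes. Kit was called in null against heterozygote in each of these fits, at -1.09 with the covariate, -1.06 with the covariate and all 9 libraries, and -1.37 in the 6 libraries (edgeR adjusted p = 0.0375, 0.0157 and 0.00281), where 1.28%, 1.63% and 1.05% of all genes were called.

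**Figure D4:**
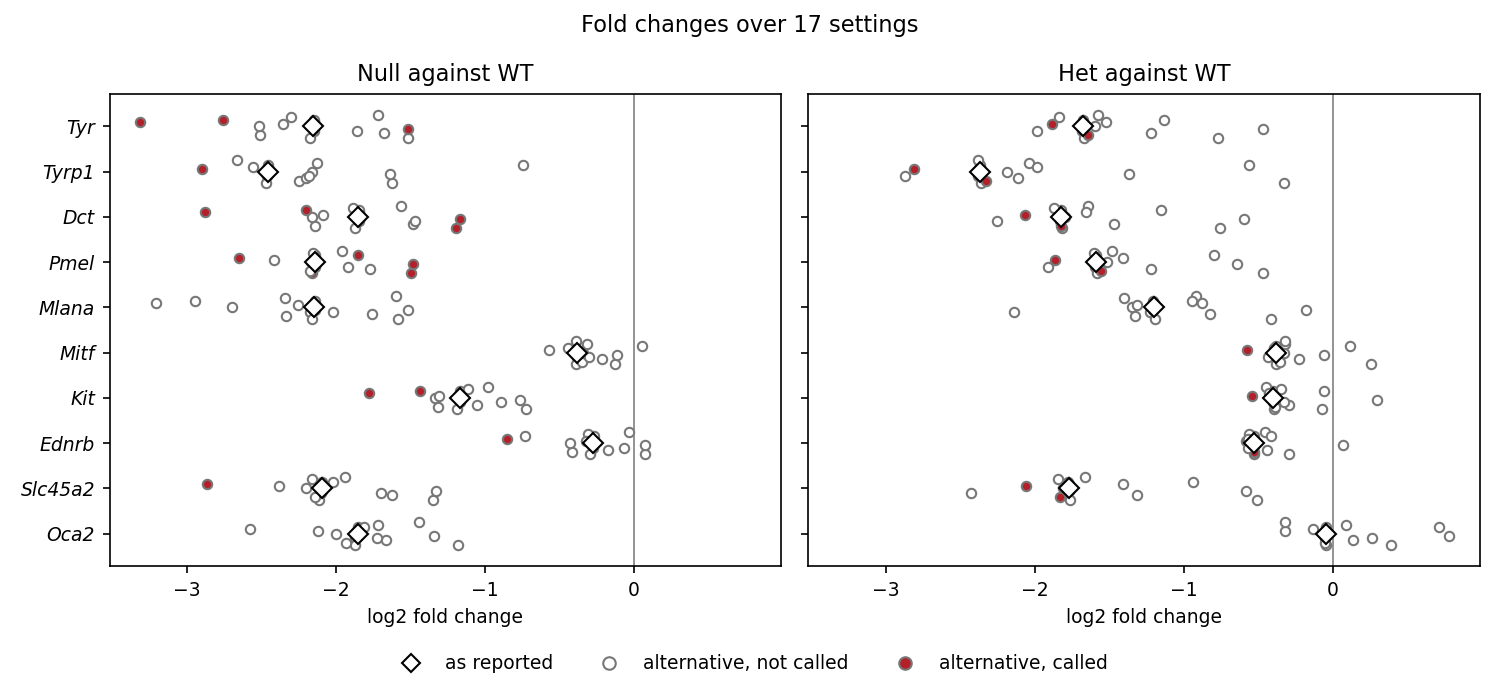
Log2 fold change of each gene (y axis) against WT (x axis) as reported (diamond) and in 16 alternative fits (circles, filled red where called), for null and for heterozygote embryos. Tyr, Tyrp1, Dct, Pmel, Mlana, Kit, Slc45a2 and Oca2 were below 0 in all 17 fits of null against WT. In heterozygote against WT, Mitf, Kit, Ednrb and Oca2 lay on both sides of 0.

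Other genes of the pathway were taken from lists. Of 26 other melanosome and pigment genes, 25 were tested in null against WT, and edgeR called 1 lower and 0 higher, where it called 1.71% of all genes. Of the 25, 5 had an unadjusted p under 0.05 (12.2% of all genes), 8 were lower in all null than in all WT libraries (8.95% of all genes) and their median log2 fold change was -0.06. The fold change was negative for 16 and positive for 9. Rab38, Hps6 and Bloc1s3 were higher in all null than in all WT libraries, a share not counted over all genes. The gene called was Gpnmb, which encodes a melanosome glycoprotein related to PMEL and found in macrophages too. It was at 2.44, 2.55 and 1.56 CPM in WT, 0.843, 1.76 and 0.511 CPM in heterozygotes and 0.454, 0.581 and 0.837 CPM in null embryos, so that the null libraries lay below the WT libraries. Its log2 fold change was -1.81 (edgeR adjusted p = 0.0489), and it was called in 4 of 16 alternatives, with adjusted p of 0.05004 under RLE normalization and 0.445 in the 6 libraries low in mesenchyme markers. The macrophage gene Csf1r was at 4.41, 6.90 and 1.29 CPM in WT, 0.762, 0.756 and 0.840 in heterozygotes and 1.32, 0.807 and 3.52 in null embryos, and its part in the Gpnmb values was not tested.

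Trpm1, a cation channel gene of melanocytes, was at 3.18, 5.604 and 1.08 CPM in WT, 1.20, 1.19 and 0.512 CPM in heterozygotes and 0.165, 0.258 and 0.670 CPM in null embryos. The null libraries lay below the WT libraries, with a log2 fold change of -3.18 (95% interval -4.82 to -1.54, edgeR adjusted p = 0.0828), larger in size than that of any of the 10 genes. Slc24a5, a cation exchanger of the melanosome, had -0.88 (edgeR adjusted p = 0.186), and Mc1r, the receptor of melanocyte-stimulating hormone, -1.12 (edgeR adjusted p = 0.432), in both cases with null libraries below WT. Gpr143, a melanosome receptor gene, had 41, 22 and 4 reads in WT, 3, 7 and 3 in heterozygotes and 4, 1 and 7 in null embryos, and was under the count filter. In heterozygote against WT, edgeR called 0 of 25 of these genes, 5 had an unadjusted p under 0.05 (against 13.1% of all genes), and the median was -0.12.

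Of 13 lineage regulators, 11 were tested in null against WT, edgeR called 0, and 1 (Sox9, higher) had an unadjusted p under 0.05, against 12.2% of all genes. Their median was -0.07. For heterozygotes against WT, 10 were tested, edgeR called 0, 5 had an unadjusted p under 0.05, against 13.1% of all genes, and the median was -0.26. Of those 5, Pax3, Zeb2 and Lef1 were lower and Sox10 and Sox9 higher. The lowest value was -3.03, that of Zeb2, a gene also expressed in mesenchyme and named after its values were seen, at 11.5, 13.9 and 2.81 CPM in WT and 0.321, 1.69 and 1.39 CPM in heterozygotes (edgeR adjusted p = 0.0715). Sox10, which activates Mitf in the neural crest and is also made by otic epithelium and glia, was at 748 to 839 CPM in WT, 859 to 914 in heterozygote and 794 to 937 in null embryos. Pax3, a neural crest partner of Sox10 on the Mitf promoter, was at 0.962, 2.16 and 1.56 CPM in WT, 0.201, 1.15 and 0.292 in heterozygotes and 0.289, 0.387 and 2.01 in null embryos. The high null value of Pax3 was again in embryo 3, and the log2 fold changes were -0.82 in null and -1.48 in heterozygote against WT (edgeR adjusted p = 0.705 and 0.298).

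Of the 11 genes for melanoblast ligands and their processing, 10 were read, 9 were tested, and edgeR called 0 in either comparison with WT, with 1 at an unadjusted p under 0.05 in null and 4 in heterozygote embryos, against 12.2% and 13.1% of all genes. The 1 was Ece1, lower, and of the 4 Kitl, Ece1 and Met were lower and Edn1 higher. Kitl, the ligand of KIT, was at 4.14, 10.4 and 4.20 CPM in WT, 1.28, 2.70 and 1.94 in heterozygotes and 1.36, 0.613 and 13.2 in null embryos. Its level was lower in null embryos 1 and 2 and in all heterozygotes than in every WT embryo and highest in null embryo 3. Kitl had a log2 fold change of -1.65 in heterozygote against WT (edgeR adjusted p = 0.0973) and -0.31 in null against WT (edgeR adjusted p = 0.925). Edn3, the ligand of EDNRB, was at 16.97 to 19.3 CPM in WT, 18.9 to 21.2 in heterozygote and 19.2 to 23.9 in null embryos, with log2 fold changes of 0.18 and 0.10. Of the 4 intermediate cell genes, edgeR called 0, with 0 at an unadjusted p under 0.05 in null against WT and 2 in heterozygote against WT, and Kcnj10, the potassium channel of mature intermediate cells, which the epithelium and glia also use, was at 10.1 to 18, 11.5 to 13.7 and 8.65 to 15.6 CPM. Met, the receptor of hepatocyte growth factor, was at 38.0 to 43.3, 27.5 to 35.5 and 27.1 to 39.9 CPM, with log2 fold changes of -0.26 in null and -0.33 in heterozygote against WT (edgeR adjusted p = 0.547 and 0.184).

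Markers of other cells that share these genes were read in the same libraries. Of 7 genes of the retinal pigment epithelium, another pigment cell, Rpe65 was at 0 in all 9 libraries, Rgr had 1 read in all, and the summed level was 55.6 to 63.3 CPM in WT, 59.0 to 64.3 in heterozygote and 53.0 to 66.8 in null embryos, mostly from Rlbp1 and Rdh5. The 12 Schwann and satellite glia genes all had counts and summed to 1601 to 1689, 1731 to 1804 and 1546 to 1726 CPM, mostly from Sox10 and Erbb3. S100b of that list, named after its values were seen, was at 2.92 to 4.81, 3.85 to 5.62 and 12.2 to 25.4 CPM and was called higher in null against WT (log2 fold change 2.13, edgeR adjusted p = 0.0241) and against heterozygote (1.89, edgeR adjusted p = 0.0481), in 13 and 10 of 16 alternatives. It was the only call among the 10 glia genes tested in null against WT, of which 4 were negative and 6 positive, with a median of 0.07. The 12 mesenchyme genes summed to 851 to 1714, 756 to 890 and 669 to 2235 CPM, with Lum and Dcn the highest by their mean over the 9 libraries and Tbx22 and Tcf21 at 0 throughout. Lum was at 485.5 to 692.5 CPM and Dcn at 118.1 to 183.4 CPM over those libraries. The study lists Dcn among the genes enriched in Kölliker's organ, an epithelial part of the duct, so the sum cannot be read as mesenchyme alone. The endothelial genes with the highest means over the 9 libraries, Kdr and Cdh5, were at 2.00 to 26.5 and 0 to 22.8 CPM in WT, 1.16 to 2.77 and 0 to 0.913 in heterozygote and 1.129 to 11.9 and 0.0968 to 16.9 in null embryos. The 10 macrophage genes summed to 5.86 to 36.2, 3.03 to 5.02 and 7.18 to 18.1 CPM, and Mrc1, the highest of them by the same mean, was at 1.63 to 16.4, 0.648 to 1.24 and 4.04 to 7.24 CPM. Mrc1 was called higher in null against heterozygote (log2 fold change 2.65, edgeR adjusted p = 0.0220), the only call of the 4 macrophage genes tested there. The 8 erythroid genes summed to 86.3 to 240.5, 36.9 to 58 and 58.4 to 123 CPM, mostly from Hbb-bs and Hba-a1, and the 10 spiral ganglion genes to 258 to 293, 248 to 276 and 203 to 289 CPM, mostly from Isl1, with Tubb3 second. Over the 9 libraries Isl1 was at 175 to 273 CPM, Tubb3 at 7.45 to 11.9 CPM and Nhlh2 at 0, so the ganglion sum is close to that of Isl1 alone. Stmn2 of that list, named after its values were seen, was at 8.18 to 9.13, 3.09 to 3.33 and 0.660 to 1.38 CPM and was called lower in null and in heterozygote against WT (-2.96 and -1.42, edgeR adjusted p = 0.00343 and 0.0107), in 16 and 10 of 16 alternatives. Of the 7 ganglion genes tested, Stmn2 was the only one called, and the median was 0.02 in null and -0.32 in heterozygote against WT. The duct epithelium itself was present in all libraries, with Epcam at 603 to 835 CPM and Tecta, a gene of the tectorial membrane that was called lower in null against WT (log2 fold change -0.93, edgeR adjusted p = 0.0128), at 1392 to 3229 CPM.

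The 10 genes did not vary alike between embryos of a genotype. With genotype means removed from log2 CPM, Pearson's r over the 9 libraries was 0.95 between Dct and Pmel, 0.95 between Pmel and Slc45a2, 0.92 between Dct and Slc45a2, 0.92 between Tyr and Mlana and 0.92 between Tyr and Ednrb. It was lower for Tyrp1, from 0.13 with Oca2 to 0.79 with Mitf, and for Oca2, whose highest value was 0.75, with Kit. These values are descriptions over points that share libraries and the spread in mesenchyme markers. The ratio of reads of Pmel to those of Dct stayed between 0.508 and 1.09 in the 9 libraries and that of Slc45a2 to Dct between 0.0301 and 0.0598, while that of Mitf to Dct ranged from 0.183 to 1.29. Mitf reads per Dct read were 0.253, 0.183 and 0.246 in WT, 0.739, 0.419 and 0.801 in heterozygotes and 1.09, 1.29 and 0.325 in null embryos, so that null embryo 3 lay between the WT and heterozygote ranges.

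**Figure D5:**
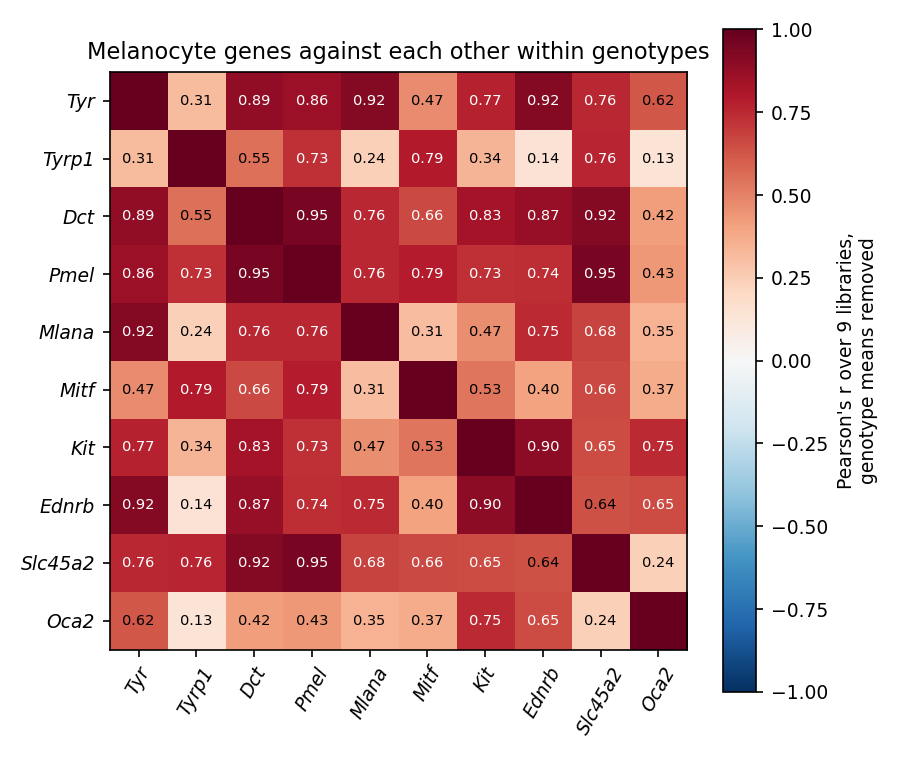
Pearson's r between the 10 genes over 9 libraries after the mean of each genotype was taken from log2 CPM (color and number in each cell, both axes the genes). Dct, Pmel and Slc45a2 form the block with the highest values, 0.92 to 0.95, and Tyrp1 and Oca2 have low values with several of the other genes, 0.13 with each other.

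Among 14809 genes with a mean of at least 1 CPM, those most like the mean of Tyr, Tyrp1, Dct, Pmel and Mlana by the same measure over 9 libraries were Tuba1c, Smpdl3b, Sun2, Lpl, Gm7964, Plekhg4, Snai2, Rab3il1, Kbtbd11 and Nab2, with r from 0.96 to 0.99. Those 5 genes were not ranked themselves, and Oca2 was under 1 CPM, so that only Mitf, Kit, Ednrb and Slc45a2 of the melanocyte genes could appear, and none of them was among these 10. None of these 10 was called in the pairwise edgeR fits. Slc45a2 came 35th with r = 0.93, Tbx18 88th with 0.90, Trpm1 137th with 0.89 and Pou3f4 158th with 0.88. Sox10 stood at rank 13788 with r = -0.66. Snai2, a neural crest and mesenchyme transcription factor gene, was at 1.67, 5.57 and 0.644 CPM in WT, 0.802, 1.44 and 0.365 in heterozygotes and 0.660, 0.613 and 10.1 in null embryos, highest in the libraries with the most mesenchyme markers.

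Per kilobase of exon, the 10 genes stood in different orders by genotype. In WT, Pmel was highest at 15.7 ± 6.81 CPM per kb, then Dct at 7.72 ± 3.15, Ednrb at 4.55 ± 0.490, Kit at 2.31 ± 0.429, Mitf at 1.60 ± 0.415, Tyrp1 at 1.01 ± 0.627, Tyr at 0.897 ± 0.428, Slc45a2 at 0.774 ± 0.388, Mlana at 0.655 ± 0.271 and Oca2 at 0.247 ± 0.0886 (SD, n = 3). Library ranges of neighbours in this order overlapped except between Ednrb and Kit and between Mlana and Oca2. In heterozygotes Ednrb at 3.15 ± 0.283 CPM per kb took the second place, after Pmel at 5.22 ± 1.84, and its range overlapped that of Dct at 2.18 ± 0.966. In null embryos Ednrb at 3.77 ± 2.17 and Pmel at 3.58 ± 1.86 CPM per kb headed the order, and their ranges overlapped. Exon length was that of all annotated transcripts together, 7108 bases for Tyr and 2292 for Pmel, and which of those exons were used here was not measured.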

How the data were processed

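RNA was sequenced from the cochlear ducts of 9 embryos, 3 per genotype at E14.5. The authors used the TruSeq mRNA kit and single reads, which they aligned to mm10 with STAR. The labels' processing notes also name cutadapt 1.13, HTSeq 0.6.1p1 and DESeq2. The deposited values are raw counts per Ensembl gene. The strand setting and the annotation release are not given in the sources used here. Names, positions and exon lengths came from GENCODE M21, which held 54165 of the 54232 genes.

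Genotypes were compared pairwise, over 6 libraries each time, in edgeR 4.0.16 in R 4.3.3 (TMM, filterByExpr with minimum count 10, quasi-likelihood test, Benjamini-Hochberg adjustment over all genes tested). A call needed an adjusted p under 0.05 with a log2 fold change of more than 0.5 in either direction. With 3 embryos against 3, an exact permutation test of a single gene cannot give a two-sided p under 0.1. Log2 CPM used a prior count of 2. No pair of libraries of one genotype agreed within sampling noise.

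Alternatives were DESeq2 1.42.0, limma-voom (limma 3.58.1), RLE or library size normalization, no count filter, a joint fit of all 9 libraries, a block for the replicate number, and each embryo left out. A mesenchyme covariate and a fit of 6 libraries were added after seeing the data. The genes, lists and tests were chosen with earlier results of these data known. Named genes are the 10 genes, Prdm16, Sox10, Pax3, Kitl, Edn3, Met, Kcnj10, Gpnmb, Trpm1, Slc24a5, Gpr143 and Mc1r, any gene of the 4 melanocyte lists that was called, the 10 genes most like the pigment genes, and the highest 2 of each other cell list by mean over the 9 libraries; others named were chosen after their values were seen.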

Additional observations from a re-analysis of the deposited data

How the results depend on the processing

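Depth and 3 embryos per genotype limit these genes: Mlana, Oca2, Tyrp1 and Slc45a2 rested on under 110 reads in every library, and null embryo 3 was at 2.28 to 5.19 times the mean of the other null embryos for the 10 genes except Tyrp1 and Mitf. Of the log2 fold changes of the 10 genes under alternatives, 131 of 160 kept their direction and side of the threshold in null against WT, 26 became called and 3 turned. In heterozygote against WT 124 of 160 did, 26 became called and 10 turned. In null against heterozygote, where Mlana was under the count filter and its values were not included, 122 did, 4 became called and 18 turned.

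The number of the 10 genes called in null against WT rose from 0 to 3 with DESeq2, 1 with library size only, 5 with no filter on low counts, 1 with all 9 libraries in one fit, 2 with the mesenchyme covariate, 3 with that covariate and all 9 libraries, and 4 in the 6 libraries low in mesenchyme markers. It was 0 to 6 when an embryo was left out, 1 without WT embryo 3 and 6 without null embryo 3. In heterozygote against WT it rose to 6 with DESeq2, 6 with no filter and 6 with the replicate block, and was 0 to 8 when an embryo was left out, 8 without WT embryo 3. In null against heterozygote it rose to 1 with the mesenchyme covariate, 1 with that and all 9 libraries and 1 in the 6 libraries, and was 0 to 1 when an embryo was left out, 1 without null embryo 3.

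Of all genes, 293 were called in null against WT, 618 with DESeq2, 476 with no filter, 468 with all 9 libraries in one fit, 590 with the covariate and all 9 libraries, and 68 to 446 when an embryo was left out. The call count in heterozygote against WT was 26, and 318 with DESeq2, 684 with no filter, 0 with all 9 libraries, 11 with limma-voom, 9 with the covariate, 0 with the covariate and all 9 libraries, 14 in the 6 libraries and 0 to 505 when an embryo was left out. In null against heterozygote it was 105, and 357 with DESeq2, 366 with no filter, 164 with all 9 libraries, 219 with the covariate, 290 with that and all 9 libraries, 201 in the 6 libraries and 12 to 182 when an embryo was left out. Leaving out any of the 6 embryos moved the first of these counts by at least 1.5 times, as it did the second, and in the third the same held for each heterozygote and null embryo 3. The causes were not tested.

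With the replicate block 133, 197 and 52 of all genes were called in the 3 comparisons, in place of 293, 26 and 105, and the 10 genes gave 0, 6 and 0 calls. Libraries sharing a number showed no common deviation (mean r = -0.0068 over 9 pairs, from -0.284 to 0.202), so the block pairs them by number only.

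In null against WT, Mitf turned to 0.0565 in the 6 libraries, and Ednrb to 0.0774 with the covariate and 0.0771 with that and all 9 libraries. In heterozygote against WT, Mitf turned to 0.26 with the covariate and 0.11 in the 6 libraries, Kit to 0.29 and Ednrb to 0.0716 with the covariate and all 9 libraries, and Oca2 to 0.39 with the covariate, 0.78 with that and all 9 libraries and 0.71 in the 6 libraries, and it ran from -0.32 to 0.26 when an embryo was left out. In null against heterozygote, Tyrp1 turned to 0.032 with limma-voom, and Mitf to -0.0098 with library size only, -0.0073 with limma-voom, -0.030 with the covariate, -0.055 with that and all 9 libraries and -0.057 in the 6 libraries. Ednrb turned to -0.049 with the covariate and -0.31 in the 6 libraries. When an embryo was left out in that comparison, Tyrp1 ran from -0.46 to 0.41, Dct from -1.05 to 0.41, Mitf from -0.062 to 0.084, Ednrb from -0.32 to 0.50 and Slc45a2 from -1.09 to 0.34. The causes were not tested.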
